A study of Arabidopsis thaliana with 8 samples.

Results

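Of 22746 probe sets measured on 8 arrays of Arabidopsis thaliana seedlings, 80 were raised by heat at both times sampled, directly after the stress and again after 2 days of recovery. A probe set was taken when the heat group mean lay at least 1 log2 unit (2-fold) above the mock mean at each time. Both heat arrays also had to lie above both mock arrays at each time, and 2 or more arrays had to reach log2 4. The members were thus selected on the differences between heat and mock at both times, so these differences are given below as a description with no test. At no recovery 2776 probe sets (12.2%) met the requirement, at 2 days 245 (1.08%) did, and 105 (0.462%) met both. From these 105, 25 were left out by name, 18 of them organelle genes or loci of the mitochondrial DNA copy on chromosome 2, and 7 of them other loci. The gene table gave 1 gene for 30 of the 80, several for 3 and none for 47.

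The 4 groups held 2 arrays each, from plants grown in vitro for 3 weeks under long days at 22 °C. Stress plants were moved to 37 °C for 30 h, starting 3 h into the light phase, and were sampled either at once (heat, no recovery) or 2 days after their return to 22 °C (heat, 2 days recovery). Mock plants stayed at 22 °C and were sampled at the same 2 times. The labels name biological replicates but not whether plants were pooled, and they name neither an accession nor a genotype.

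Heat unfolds proteins, and plants answer through heat shock transcription factors, which switch on chaperones and other protective genes within minutes. Most of these transcripts fall back once the heat ends, while some last for days and are studied as part of the memory that makes a later heat stress easier to survive. The genes described here are among those whose transcripts were above the mock level of the same day at both times.

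Levels are GCRMA values on the log2 scale, a probe set's fluorescence after background correction and normalization between arrays, and levels of different probe sets are not compared. Replicate arrays correlated at 0.995 to 0.996 across probe sets. A control probe set for 25S ribosomal RNA read 13.41 and 13.56 on the heat arrays without recovery, against 11.73 and 11.43 in mock, and 11.99 and 11.79 against 11.51 and 11.96 at 2 days. The difference between the 3′ and 5′ ends of GAPDH, a measure of RNA degradation, ran from 2.73 to 3.25 over the 8 arrays. Of 23 leaf photosynthesis genes listed, 5 had a probe set with 1 gene. LHCB4.1, LHCB4.2, PSAE-1 and PSBY read lower on both heat arrays without recovery than on the other 6 arrays. PSBY, for example, read 11.28 and 11.20 against 12.86 to 13.07. The fifth gene, LHCB4.3, read higher. Of 3 root markers measured, PYK10 read 8.78 and 9.01 in heat without recovery against 11.29 to 12.16 on the other 6 arrays, and EXPA7 and EXPA18 were at the floor of the signal (below 2.3) throughout. The part of ribosomal RNA, leaf and root tissue in the results below was not tested. In whole seedlings, fewer cells of a type and less RNA per cell cannot be told apart.

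The heat difference of the 80 probe sets without recovery had a median of 3.55 log2 units and ran from 1.05 to 11.81. After recovery the median was 1.36, from 1.01 to 5.02, beside medians of 0 over all probe sets at either time. The difference after recovery was under 1.5 in 51 probe sets and at least 2 in 12. It was at least as large as that without recovery in 6. Across the 80 probe sets the differences at the 2 times had a Pearson r of 0.42 and a Spearman rho of 0.27, and over the 30 with 1 gene an r of 0.14 and a rho of 0.16. These points share their arrays and were all chosen for a high value on both axes, so the figures are a description.

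**Figure D1:**
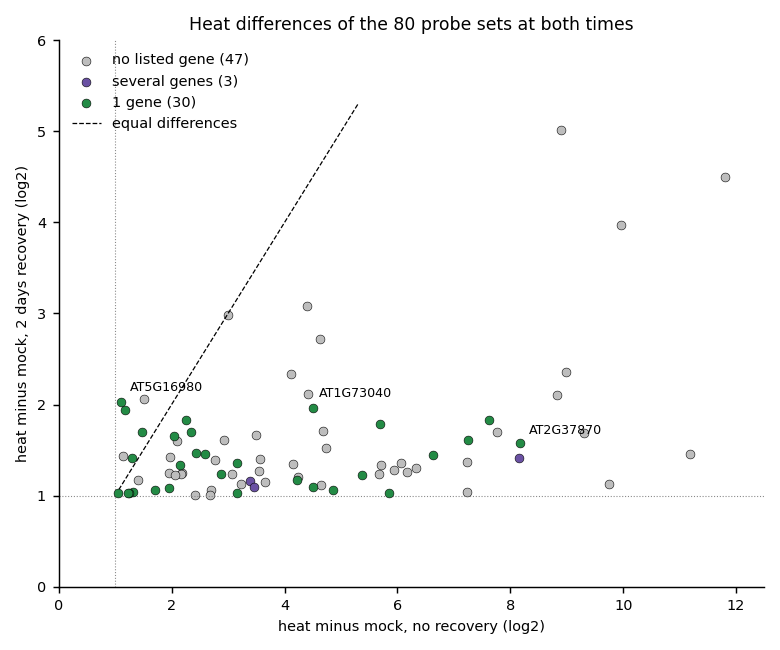
Heat minus mock differences (log2) without recovery on the x axis and after 2 days recovery on the y axis, 1 point for each of the 80 probe sets, coloured by how many genes the probe set has. Dotted lines mark the threshold of 1 and the dashed line equal differences. Most points lie below the dashed line, and the highest point, a probe set with no listed gene, stands at 8.90 without recovery and 5.02 after it.

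The probe sets with the greatest lasting differences have no listed gene. All of the 10 largest after recovery were among the 47 unlisted ones. The first read 2.42 and 2.65 in mock and 11.43 and 11.43 in heat without recovery, and then 2.65 and 2.91 against 7.82 and 7.78 at 2 days. The next went from 2.96 and 2.59 to 14.53 and 14.64, and at 2 days stood at 6.96 and 6.96 against 2.26 and 2.65. In both, the recovered arrays lay between the heat arrays and all 4 mock arrays, far from either, while the mock groups of the 2 times were close together. Because unlisted probe sets could not be checked against the names left out, some of them may report organelle or other left-out genes.

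Of the 30 genes with a name, 29 are protein-coding and 1 is annotated as a pseudogene. They lie on all 5 nuclear chromosomes, with 8, 7, 3, 4 and 8 on chromosomes 1 to 5. Their median heat difference was 2.51 without recovery and 1.39 after it. They are described by what their products do.

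Sugar and cell wall enzymes and sugar-binding proteins made up 4 of the 30. AT1G73040 encodes a protein of the jacalin-like lectins, which bind sugars. It read 4.57 and 4.30 in mock and 9.16 and 8.73 in heat without recovery, and 4.93 and 4.57 against 6.58 and 6.82 at 2 days. This is a difference of 4.51 ± 0.22 (SE from the model over all 8 arrays) at first and of 1.96 ± 0.22 later, with wide gaps between the groups at both times.

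AT1G62660, a vacuolar invertase that splits sucrose into glucose and fructose, moved far less. It read 7.30 and 7.16 in mock against 8.38 and 8.54 in heat, and 6.67 and 6.67 against 7.60 and 7.79 at 2 days, so that it was just inside the threshold at 1.03 ± 0.09. The putative chitinase CHI (AT2G43570), of a family that cuts the chitin of fungal walls, had mock arrays that differed by more than the heat difference later. They read 4.20 and 6.23 without recovery, against 7.29 and 7.24 in heat, and at 2 days CHI stood at 4.74 and 4.22 against 5.79 and 6.48. AT2G41640, a glycosyltransferase of family 61, rests on small gaps after recovery, with 4.04 and 3.34 in mock and 4.41 and 5.13 in heat.

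Both UDP-glycosyltransferases in the set attach sugar to small molecules. UGT85A5 read 6.20 and 6.44 in mock and 8.47 and 8.88 in heat without recovery. At 2 days its mock arrays read 5.16 and 5.26 and its heat arrays 6.86 and 6.95, a difference of 1.70 ± 0.17 between tight groups. UGT84A3, which makes glucose esters of hydroxycinnamic acids, read 6.84 and 6.82 against 8.17 and 8.12 at first, and 6.26 and 5.80 against 6.93 and 7.22 later. In both genes the mock plants of the second time were lower than those of the first.

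Amino acid metabolism was represented by 3 genes. AT4G33150 encodes LKR/SDH, the bifunctional enzyme that starts lysine breakdown through saccharopine. It read 7.35 and 7.72 in mock and 9.80 and 10.14 in heat, and 7.48 and 7.32 against 8.57 and 9.17 after recovery, with differences of 2.44 ± 0.27 and 1.47 ± 0.27. ALDH7B4 is an aldehyde dehydrogenase of the antiquitin family, whose human member acts further down the lysine pathway.

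ALDH7B4 read 10.04 and 10.46 in mock against 11.83 and 12.09 in heat without recovery. At 2 days its arrays read 10.22 and 9.99 against 10.81 and 11.52, and here the recovered replicates differed from each other by more than the lower one exceeded mock. AT2G41190, of an amino acid transporter family, had a large early difference of 5.85 ± 0.25, from 5.53 and 5.40 to 10.99 and 11.64. Little of it was left at 2 days, when the arrays read 5.35 and 5.22 in mock and 6.48 and 6.15 in recovered plants.

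Both proteases in the set moved modestly at either time. AT1G62290, an aspartic protease of the vacuolar type, read 5.50 and 4.95 in mock and 6.71 and 6.70 in heat. At 2 days it stood at 4.47 and 4.91 against 6.49 and 6.29, so that its difference was 1.48 ± 0.24 at first and 1.70 ± 0.24 later. AT3G14067, a subtilisin-like serine protease, had differences of 1.24 ± 0.14 and 1.03 ± 0.14, and its recovered arrays of 7.81 and 7.89 lay close to the earlier mock values of 7.59 and 7.39.

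Among the 3 oxidoreductases was the gene with the largest difference after recovery of the 30, AT5G16980, of the zinc-binding dehydrogenases. It read 5.49 and 6.06 in mock and 6.73 and 7.05 in heat without recovery, and 5.65 and 5.46 against 7.32 and 7.85 after it. The difference was 1.11 ± 0.29 and then 2.03 ± 0.29, and the recovered arrays were above the arrays taken directly after heat.

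AT1G09500, a protein like cinnamyl-alcohol dehydrogenases, went from 4.07 and 3.89 to 9.35 and 9.99. Its recovered arrays disagreed, at 4.95 and 6.78 against 4.11 and 4.05 in mock, so its later difference of 1.79 ± 0.66 rests mostly on the second array. AT2G23910, related to cinnamoyl-CoA reductases, went from 3.31 and 3.27 to 7.97 and 8.32 and stood at 3.72 and 4.12 against 3.09 and 2.62 at 2 days.

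The 3 genes for lipid-binding or lipid-cleaving proteins all had large early differences. AT2G37870, of the lipid transfer protein family, had the largest of the 30 without recovery. It read 2.60 and 2.42 in mock against 10.77 and 10.58 in heat (8.17 ± 0.31), and 2.46 and 2.47 against 4.50 and 3.61 at 2 days (1.58 ± 0.31). AT4G23680, like the major latex proteins that bind hydrophobic molecules, kept tight replicates after recovery.

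AT4G23680 read 9.58 and 8.83 in mock and 13.37 and 13.48 in heat, and 9.23 and 9.20 against 10.45 and 10.31 at 2 days. AT5G55050, a GDSL esterase or lipase, read 4.92 and 4.60 against 7.73 and 8.10 at first and 4.38 and 4.38 against 4.99 and 5.84 later. Its recovered replicates differed from each other by 0.84, more than the gap of 0.61 that separated them from mock.

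A subunit of mitochondrial complex III and a subunit of translation elongation factor 1B had large early differences of nearly the same size. AT5G25450, the complex III subunit, read 3.39 on both mock arrays and 10.93 and 11.11 in heat, and 3.66 and 3.53 against 5.08 and 5.77 at 2 days. AT5G12110, the elongation factor subunit, read 5.85 and 5.89 against 13.13 and 13.12 at first and 5.91 and 6.35 against 7.90 and 7.58 later. Differences were 7.63 ± 0.24 and 7.25 ± 0.18 without recovery, and 1.83 ± 0.24 and 1.61 ± 0.18 after it, with groups well apart at either time.

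Regulators and other stress proteins made up 6 of the 30. SIS (AT5G02020, Salt Induced Serine rich) read 6.27 and 6.32 in mock and 7.63 and 7.56 in heat. At 2 days both mock and recovered plants read higher, at 6.95 and 7.37 against 8.91 and 8.25. AT3G11580, a B3 domain transcription factor related to the NGATHA family, had the smallest early difference of the 30 (1.05 ± 0.25) and one of nearly the same size later (1.03 ± 0.25).

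AT3G11580 read 4.05 and 4.04 against 4.75 and 5.44, and then 4.37 and 4.33 against 5.23 and 5.52. AT3G13672 (SINA2), which takes its name from the SINA ubiquitin ligases, read 4.28 and 4.26 against 6.12 and 6.69, and then 4.26 and 3.87 against 5.21 and 5.59. Groups did not overlap in either gene, as the selection required, and the gaps after recovery were larger than the distance between replicates.

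AT1G05340 encodes a small cysteine-rich membrane protein of a stress-related family. It read 5.04 and 5.46 against 11.36 and 12.40 at first, but 5.27 and 4.17 against 5.71 and 6.61 later, with replicates up to 1.10 apart and a gap of 0.43 between groups. AT2G28400, of the S40 family linked to leaf senescence, was alike, with 4.43 and 4.95 against 8.82 and 9.55 at first and 3.77 and 4.92 against 5.45 and 5.43 later. AT5G61820, like the nodulin Nod19, kept close replicates, with 9.71 and 9.69 against 12.49 and 12.67, and then 9.50 and 9.25 against 10.45 and 10.77.

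For 5 of the 30 no role is given here. AT2G31945 read 4.47 and 5.66 against 5.83 and 6.65 without recovery, where the gap of 0.17 between groups was small, and 3.98 and 3.90 against 5.58 and 6.18 at 2 days. AT5G39520 read 7.26 and 8.28 against 9.59 and 10.45, and then 6.69 and 6.32 against 7.97 and 8.70. The later differences were 1.94 ± 0.53 and 1.83 ± 0.52, with gaps of 1.59 and 1.29 between the groups.

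AT5G35660 read 4.92 and 4.61 against 6.66 and 8.04 at first. Its groups were barely apart at 2 days, with 4.51 and 3.21 in mock and 5.83 and 4.80 in recovered plants. The pseudogene AT1G10260 was at the floor on all 4 mock arrays (2.28). It read 4.55 and 6.31 in heat and 3.79 and 3.49 after recovery, differences of at least 3.15 ± 0.60 and at least 1.36 ± 0.60. AT4G23493 was at the floor in mock as well, with 7.46 and 7.63 in heat and 3.01 and 3.83 after recovery, differences of at least 5.37 ± 0.28 and at least 1.23 ± 0.28.

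**Figure D2:**
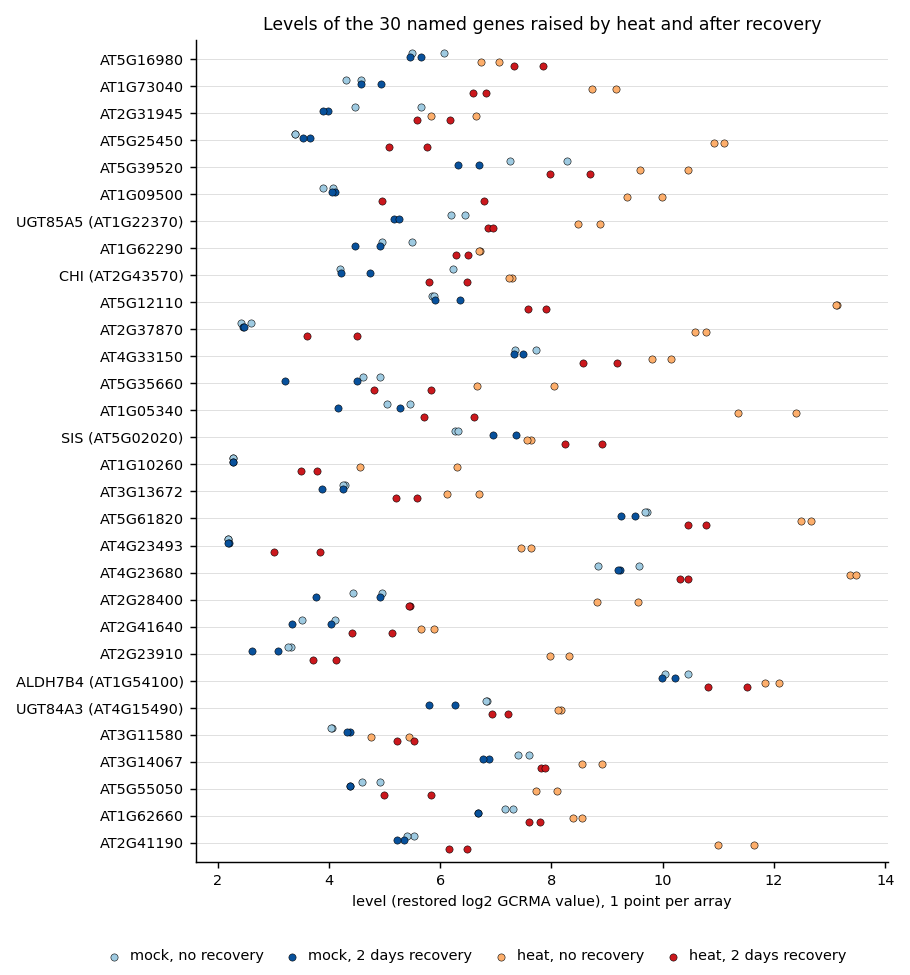
Level (restored log2 GCRMA value) of each of the 30 genes on the 8 arrays, 1 point per array and 1 colour per group, ordered from the largest heat difference after recovery at the top. Recovered arrays lie between mock and heat arrays for most genes, and above the heat arrays without recovery for AT5G16980 and SIS.

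The gap between the lower heat and the higher mock array exceeded the largest distance between replicates in 77 of the 80 probe sets without recovery and in 56 after it, and in 28 and 22 of the 30 named genes. The selection required these same arrays not to overlap, so the counts are a description and no support for the differences. Leaving out single arrays left 44 of the 80, and 13 of the 30, inside the rule every time. The second recovered array mattered most, since 53 of the 80 still met the rule without it. That array was above its replicate in 58 of the 80 probe sets and in 37.7% of all probe sets. The share over all includes probe sets at the floor, where arrays can hardly differ. The part of this array in the selection was not tested further. Just inside the threshold lay AT1G62660, AT3G11580 and AT3G14067, with a smaller difference of 1.026, 1.026 and 1.031. Just outside were AT1G28570, AT5G02860 and AT3G18870 with 0.998, 0.985 and 0.977, so genes on either side of the line hardly differed.

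How the level moved in stressed plants over the 2 days was a comparison that the rule did not make, although it used the same arrays. Between heat without recovery and heat after recovery, limma (moderated variances over all probe sets, Benjamini-Hochberg adjusted p under 0.05) called 57 of the 80 probe sets lower and 1 higher, against 20.9% and 19.1% of all probe sets. Over the 13849 probe sets that reached log2 4 on 2 or more arrays it called 69 of the 80 lower and 2 higher (34.9% and 34.2% of those tested). Both recovered arrays lay below both earlier heat arrays in 73 of the 80 (30.2% of all probe sets) and above them in 2, AT5G16980 and SIS (28.4% of all). Every member had to lie above mock on the heat arrays of both times, so these counts are not independent of the selection. Among the 2671 probe sets raised without recovery only, which did not meet the requirement after it, 2540 were called lower. The median change was -2.51 in the 80, from -9.76 to 0.98. It was 0 over all probe sets and -1.62 over those raised without recovery only. Of the 80, 62 fell by at least 1 while 18 stayed within 1.

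Of the 30 named genes 19 were called lower and 1 higher. AT2G37870 fell by 6.62 (SE 0.31, adjusted p = 0.000295), AT1G05340 by 5.72 (SE 0.61, adjusted p = 0.00261), AT5G25450 by 5.59 (SE 0.24, adjusted p = 0.00025) and AT5G12110 by 5.38 (SE 0.18, adjusted p = 0.00015). These 4 were lower on both recovered arrays than on both earlier heat arrays. SIS rose by 0.98 ± 0.26 (adjusted p = 0.0433). AT5G16980 had a change of 0.70 ± 0.29 (adjusted p = 0.142), AT3G11580 of 0.28 ± 0.25 (adjusted p = 0.50) and AT1G62290 of -0.32 ± 0.24 (adjusted p = 0.42), none past the threshold.

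The call of SIS was not stable. It ended when any 1 array of the other 3 groups was left out (adjusted p from 0.0622 to 0.157) and without heat recovery replicate 1 (0.66, adjusted p = 0.096), but held without heat recovery replicate 2 (adjusted p = 0.0201). For AT4G33150 (-1.10) and AT3G13672 (-1.0) the call ended without 7 and 7 of the 8 arrays in turn, with adjusted p up to 0.137 and 0.163. UGT84A3 lost its call without heat no-recovery replicate 1 or 2 (adjusted p = 0.0596 and 0.0526) or heat recovery replicate 1 (0.0541). AT1G09500 lost it without heat no-recovery replicate 2 (0.0591), and AT3G14067 without heat recovery replicate 1 (0.0526). For the other 14 called genes no single array ended the call. With only the 4 heat arrays fitted, 6 calls ended, those of SIS (adjusted p = 0.149), AT3G13672 (0.152), AT4G33150 (0.134), AT1G09500 (0.0968), AT3G14067 (0.0709) and AT5G55050 (0.0582).

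**Figure D3:**
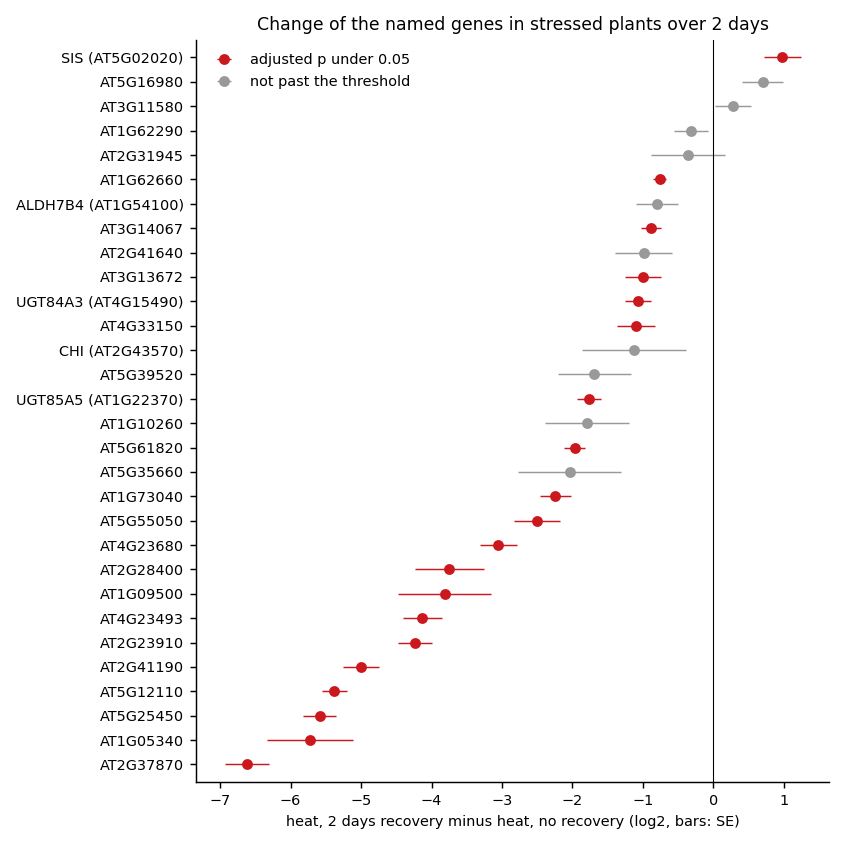
Change in level (log2) from heat without recovery to heat after 2 days recovery for each of the 30 genes, with bars for the SE (n = 2 arrays per group). Red points passed an adjusted p of 0.05. SIS, at 0.98, is the gene called higher, and AT2G37870, at -6.62, lies farthest down.

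The last comparison set the recovered plants against the mock plants of 2 days earlier, to see how much of the difference after recovery lay in the mock plants of the same day. Later mock plants were lower than earlier ones in 55 of the 80 probe sets (41.3% of all). Of all values, 31.4% were at the floor, where arrays can hardly differ, so that share is not like for like. The median change was -0.21, against 0 over all probe sets and 0.07 over those raised without recovery only. Both later mock arrays were below both earlier ones in 28 of the 80 (16% of all probe sets) and above them in 12 (15.2% of all). A low mock value at either time helped a probe set into the selection, so this lean is not independent of it. Its cause was not tested. Limma called 0 of the 80 changed between the mock groups in either direction (0.0352% of all probe sets lower, 0.044% higher), while 10 were lower and 4 higher at an unadjusted p under 0.05 (4.5% and 4.13% of all probe sets). Over the probe sets reaching log2 4 it called 1 of the 80 lower, a probe set with no listed gene (-1.36 ± 0.17, adjusted p = 0.0421), and 0 higher (0.065% and 0.0866% of those tested).

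Recovered plants stood above the earlier mock plants by a median of 1.17, from 0.24 to 5.27, and both recovered arrays lay above both earlier mock arrays in 70 of the 80 (16.3% of all probe sets). The median was 0 over all probe sets and 0.06 over those raised without recovery only. The difference was at least 1 in 48 of the 80 and in 14 of the 30. Limma called 3 of the 80 higher (0.0615% of all probe sets), all without a listed gene, and 0 of the 30, of which 18 were higher at an unadjusted p under 0.05 (5.79% of all probe sets). It called 0 of the 80 lower (0.0572% of all probe sets). Over the probe sets reaching log2 4 it called 32 of the 80 higher, 13 of them named, and 0 lower (1.42% and 1.6% of those tested). Every member passes this level requirement, which was part of the selection. The recovered and earlier mock arrays both served to choose the members, so none of these counts is independent support.

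Named genes fell along a wide range in this comparison. SIS stood 2.28 ± 0.26 above the earlier mock plants, AT1G73040 2.27 ± 0.22, AT5G25450 2.04 ± 0.24, AT5G12110 1.87 ± 0.18 and AT5G16980 1.81 ± 0.29. Over all probe sets limma called none of these, with adjusted p from 0.0776 to 0.134. Over those reaching log2 4 their adjusted p ran from 0.00417 to 0.0153. That level filter and these arrays were part of the selection, so the p-values are not independent support. For these 5 genes both recovered arrays lay above the mock arrays of either day. AT1G09500 lay in the same range at 1.88 ± 0.66, but its wide error left it at an adjusted p of 0.376 over all probe sets, and it was not called over those reaching log2 4 either.

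At the other end, UGT84A3 was 0.24 ± 0.19 above the earlier mock plants, AT3G14067 0.36 ± 0.14, AT1G62660 0.47 ± 0.09 and UGT85A5 0.59 ± 0.17 (adjusted p from 0.188 to 0.727). The mock plants of these 4 genes had changed by -0.80, -0.67, -0.56 and -1.11 between the 2 times, none past the threshold (adjusted p from 0.202 to 0.346). By these group means, much of their difference after recovery lay between the earlier and later mock groups. Low mock values at either time helped a gene into the selection, so this split is not independent of it, and its cause was not tested. Recovered plants were also sampled 2 days later than the earlier mock plants, so heat and time cannot be told apart in this comparison. AT5G39520 (0.56 ± 0.52, with a mock change of -1.27) and AT2G31945 (0.81 ± 0.53, with -1.13) were alike but had wider errors.

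**Figure D4:**
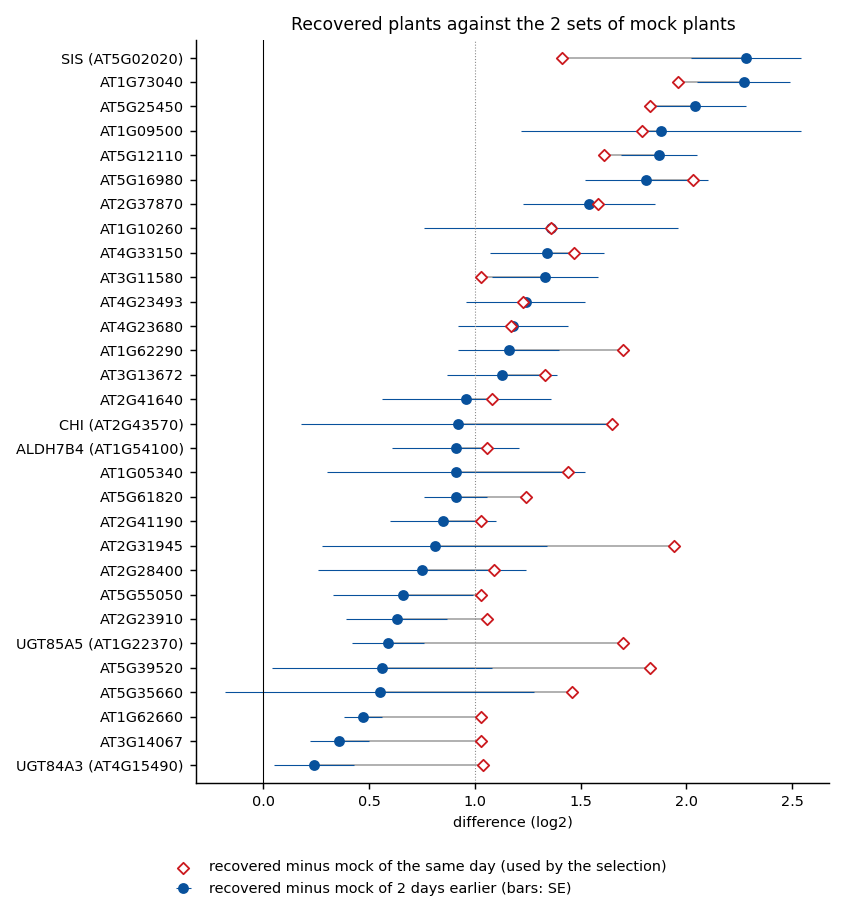
Difference (log2) of recovered plants from the mock plants of 2 days earlier (blue circles, bars for the SE, n = 2 arrays per group) and from those of the same day (red diamonds, which the selection used), for each of the 30 genes. Genes at the top, from SIS at 2.28, lie above both sets of mock plants. For UGT84A3 at the bottom the difference shrinks from 1.04 to 0.24.

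Well-known heat and dehydration genes were counted from 15 lists of 241 genes, of which 70 had a probe set with 1 gene. None of the 70 is among the 80 members, because those that met the rule were left out by name. The other listed genes had no probe set with 1 gene and could not be looked for. Some of them may be among the members with several genes or no listed gene. After recovery 3 of 9 small heat shock proteins, 1 of 8 large chaperones and co-chaperones and 2 of 6 abscisic acid and dehydration genes were raised against the mock plants of the same day by the requirement used here (1.08% of all probe sets). Over the 2 days in stressed plants, 7 of the small heat shock proteins were called lower and 1 higher (20.9% and 19.1% of all probe sets), with a median change of -6.03. The 8 counted genes of the chaperone list were each called lower (median -4.47). Both lists are longer, with 17 and 22 genes, of which only these 9 and 8 were counted. Of those counted, 0 were called above the earlier mock plants after recovery (0.0615% of all probe sets called). Their median differences there were 0.16 and 0.06, which says nothing of the uncounted genes. The 6 abscisic acid and dehydration genes counted had a median of 0.87 there, with 0 called, and the 9 autophagy genes one of 0.34, also with 0 called. The 5 endoplasmic reticulum stress genes had a median of -0.27 with 0 called. The 6 defence genes had one of -0.25 with 1 called lower (0.0572% of all probe sets). Medians of the remaining counted lists ran from -0.04 to 0.29, with 0 called. For heat shock factors, raffinose and proline metabolism and seed markers 0 genes had a probe set with 1 gene, so these lists could not be counted.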

How the data were processed

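Total RNA of whole seedlings was hybridized to 1 Affymetrix array per sample, with 2 biological replicates in each of 4 groups, per the labels. The authors' deposited values are GCRMA values on the log2 scale, per the submitters' processing notes, with no GCRMA version stated there. They were deposited as scores lacking the decimal point. Here it was put back behind the leading digit, except in values starting with 1, which received it behind 2 digits. Intensities below log2 2.3 were treated as the floor, and changes against a group at the floor as lower bounds.

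Members and gene lists were chosen with earlier results of these data known. A probe set was named where the platform annotation gives 1 gene. By the naming rule 22 genes were taken, and the other 8 members with 1 gene were named so that every one is accounted for. Gene names were matched to RefSeq. AT5G12110, an entry placed in the chaperone list by mistake, was removed. Loci barred by name are not reported here.

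Limma 3.58.1 in R 4.3.3 fitted all 8 arrays, with 4 residual degrees of freedom, and Benjamini-Hochberg adjustment ran over 22746 probe sets. It was tested on simulated data. Tests were made between the mock groups, between the heat groups, and between recovered and earlier mock plants, all on the arrays that chose the members. The 2 arrays per group limit the precision. Alternatives changed the threshold, level filter, floor, centring, variance model, replicate block and arrays included. Same-numbered samples had correlations of deviations from -0.149 to 0.186, the highest between the heat groups. These cannot show whether the numbers pair the samples. The main fit treated the samples as unpaired.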

Additional observations from a re-analysis of the deposited data

How the results depend on the processing

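The number of members was 26 at a difference of 1.5 and 196 at 0.6, and 65 to 109 with 1 array left out. Leaving out 1 array gave 46 to 55 members called lower and 0 to 2 called higher between the heat groups, 3507 to 3989 and 3866 to 4416 of all probe sets higher and lower, and 0 members changed between the mock groups (2 to 191 and 2 to 313 of all probe sets higher and lower). For recovered against earlier mock plants it gave 1 to 12 members higher, and 6 to 313 and 6 to 336 of all probe sets higher and lower.

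With probe sets reaching log2 4 alone, 1 member was lower between the mock groups, 2 were higher between the heat groups and 32 stood above the earlier mock plants (197 of all probe sets higher, 222 lower). With values under 4 set to 4, these were 2 members higher between the heat groups and 22 above the earlier mock plants (151 and 172 of all), with 6 and 5 of all probe sets higher and lower between the mock groups. Fits restricted to the 4 arrays of a comparison gave 0 for each count in the preceding sentence. Centring each array gave 16 members above the earlier mock plants (118 and 85 of all). With the replicate block, the calls of SIS (adjusted p = 0.0862) and AT3G13672 (0.0735) between the heat groups ended, so that 0 members were higher there, and 1 stood above the earlier mock plants (7 and 5 of all), with 4 and 5 of all probe sets higher and lower between the mock groups. Fewer probe sets or arrays entered some of these fits, but not those with centring or the replicate block. The causes of the changed counts were not tested. No result changed direction. A promoter motif search was not run.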
